A study of Mus musculus with 3 samples.

Results

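Interferon regulators and response genes were examined in mouse kidney 1 day after anti-GBM antibody was injected. This antibody binds the glomerular basement membrane (GBM), the filter layer between glomerular capillaries and podocytes. The genes were chosen by symbol, by a rule that uses no measured value but was written with earlier results of these data known. They were the interferon regulatory factors (Irf), interferons and their receptors (Ifn), the Ifi, Ifit, Ifih, Oas, Gbp, Isg, Irgm, Igtp and Iigp genes, Mx1, Mx2, the Janus kinases, Tyk2, Stat2, Usp18, Eif2ak2, Adar, Rsad2 and Zbp1. This rule found 66 genes on 86 rows of the deposited table, which has 16281 rows and names 10698 genes. It also took in 4 Ifitm genes, whose symbols begin like those of the Ifit genes. Another 4 genes, the proteasome activators named Psme, were left out. Of the 66 genes, 51 had a value on all 3 arrays and were tested (77.3%, against 67.6% of all named genes), 6 had a value on 1 or 2 arrays, and 9 were listed at 0 on every array.

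There was 1 group of 3 BALB/c mice, numbered 11, 12 and 13, which received anti-GBM antibody and were studied at day 1. Kidney total RNA of each mouse carried Cy5 and shared a 2-colour array with a Cy3-labelled pool made from 5 normal BALB/c mice, per the labels. The 3 mice are separate animals, but the pool is 1 control sample, so the spread between control mice is not in any test. Dyes were never swapped, and a dye bias of a probe would stay in its log ratio. The values are log ratios whose base and direction are not stated. A positive value is likely higher in the anti-GBM kidney, since its RNA carries Cy5 and ratios are usually given as Cy5 over Cy3. All values below are log ratios on the deposited scale, centred on each array's median, as mean ± SD over n = 3 mice. A value of exactly 0 was read as no estimate. In whole kidney, more cells of a type and more RNA per cell cannot be told apart. The table holds no levels, so the labelled tissue could not be checked against the levels of kidney markers. Of 14 markers of tubule and podocyte, 8 had a value on all arrays, and Umod, Lrp2, Kap and Podxl were listed at 0 on every array.

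Interferons are secreted proteins that alert cells to infection and inflammation. Type I interferons signal through the receptor pair Ifnar1 and Ifnar2 and the kinases Jak1 and Tyk2, which switch on a factor built with Stat2 and Irf9. That factor binds the interferon-stimulated response element in the promoters of antiviral genes such as the Ifit, Oas and Mx genes. Interferon gamma, made by T and NK cells, signals through Ifngr1, Ifngr2, Jak1 and Jak2 to genes with a gamma-activated site, among them Irf1 and the guanylate-binding and immunity-related GTPases. In the kidney these genes respond in resident cells as well as in leukocytes that enter inflamed glomeruli.

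The interferon genes shifted by little as a group, and single members went both ways. Among the 51 tested, 9 were higher in anti-GBM kidneys, 3 were lower and 39 did not pass the test (limma, Benjamini-Hochberg adjusted p under 0.05 over all 7235 genes tested). The called share was 23.5%, against 19.4% of all genes tested, so the count of called members was near the background. By direction, 17.6% of the members were higher, against 9.48% of all genes, and 5.88% were lower, against 9.97%. These shares of all genes are the background for the counts of each family and list below. If the ratios run the other way, higher and lower change places here and throughout. The median of the members' mean log ratios was 0.096, beside -0.001 for all genes tested. Means above 0 were found for 31 of 51 members (60.8%), and for 49.7% of all genes. Values were above 0 in all mice for 21 of the 51 members, beside 2009 of all 7235 genes (27.8%). They were below 0 in all mice for 10 of the 51 members, beside 2077 of the 7235 (28.7%). The 9 higher members were Irf7, Ifit1, Ifi202b, Adar, Igtp, Oas1a, Usp18, Ifitm3 and Irgm2, and the 3 lower ones were Gbp3, Ifi211 and Ifna6. Only Irf7, Ifit1, Ifi211 and Ifna6 kept their calls whichever 1 of the 3 mice was left out. Without mouse 11 the calls numbered 7 and without mouse 12 they numbered 6, while without mouse 13 there were 11. With zeros kept as measured values, 5 calls remained, those of Irf7, Ifit1, Oas1a, Usp18 and Gbp3.

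**Figure D1:**
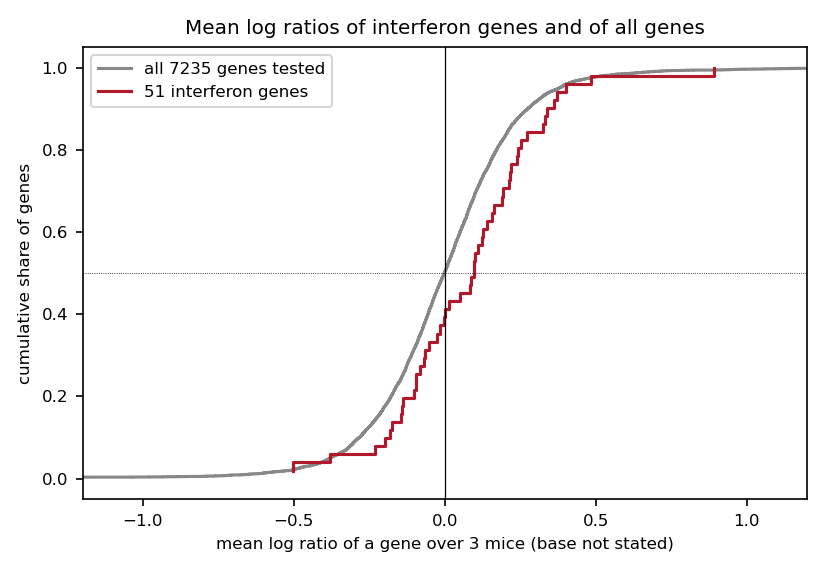
Cumulative share of genes (y axis) by mean log ratio over 3 mice (x axis, base not stated), for the 51 interferon genes (red) and all 7235 genes tested (grey); the outermost means of all genes are not drawn. The red curve crosses 0.5 at 0.096 and the grey curve near 0, and the curves come close at both ends apart from Irf7 at 0.89.

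The promoters of members past the test are shown because the interferon pathway is known through its promoter elements and the called members went in both directions. Irf7 and Ifit1 have the highest means among members with a promoter sequence. Oas1a, Igtp and Irgm2 (higher) and Gbp3 (lower) were added, after their values and matches were seen, as examples that hold the response element pattern in both directions of change. Each is the 250 bases before a RefSeq start site (GRCm38.p6), 5′ to 3′ on the gene's own strand. Capitals mark each match to GAAA, any 2 bases and GAAA, the core of the interferon-stimulated response element, or to TTC, any 3 bases and GAA, the gamma-activated site, searched on both strands.
Irf7, chr7:141266425-141266674, minus strand: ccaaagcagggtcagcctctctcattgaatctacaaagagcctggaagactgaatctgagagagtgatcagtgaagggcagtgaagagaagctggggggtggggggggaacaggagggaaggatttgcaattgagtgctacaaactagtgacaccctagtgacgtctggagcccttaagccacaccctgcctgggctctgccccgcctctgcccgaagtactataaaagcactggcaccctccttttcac
Ifit1, chr19:34640639-34640888, plus strand: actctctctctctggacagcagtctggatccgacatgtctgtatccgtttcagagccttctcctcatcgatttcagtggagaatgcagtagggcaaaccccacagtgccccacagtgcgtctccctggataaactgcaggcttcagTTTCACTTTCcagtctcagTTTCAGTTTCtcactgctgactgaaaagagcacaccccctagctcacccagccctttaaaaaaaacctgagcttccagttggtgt
Oas1a, chr5:120907526-120907775, minus strand: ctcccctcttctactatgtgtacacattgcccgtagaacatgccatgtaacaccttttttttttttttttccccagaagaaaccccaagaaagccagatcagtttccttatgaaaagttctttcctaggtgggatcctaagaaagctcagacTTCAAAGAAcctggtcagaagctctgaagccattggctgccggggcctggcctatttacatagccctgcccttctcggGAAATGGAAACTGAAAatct
Igtp, chr11:58199306-58199555, plus strand: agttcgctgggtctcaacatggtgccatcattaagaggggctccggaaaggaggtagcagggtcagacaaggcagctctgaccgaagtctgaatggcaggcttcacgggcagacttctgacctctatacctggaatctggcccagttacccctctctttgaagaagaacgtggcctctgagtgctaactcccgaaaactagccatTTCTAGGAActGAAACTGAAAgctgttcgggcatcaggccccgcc
Irgm2, chr11:58214727-58214976, plus strand: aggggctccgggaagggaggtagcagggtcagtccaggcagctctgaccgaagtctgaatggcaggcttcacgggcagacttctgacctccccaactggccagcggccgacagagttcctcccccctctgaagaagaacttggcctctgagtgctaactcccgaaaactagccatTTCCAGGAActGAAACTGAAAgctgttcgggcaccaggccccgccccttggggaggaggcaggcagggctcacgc
Gbp3, chr3:142559794-142560043, plus strand: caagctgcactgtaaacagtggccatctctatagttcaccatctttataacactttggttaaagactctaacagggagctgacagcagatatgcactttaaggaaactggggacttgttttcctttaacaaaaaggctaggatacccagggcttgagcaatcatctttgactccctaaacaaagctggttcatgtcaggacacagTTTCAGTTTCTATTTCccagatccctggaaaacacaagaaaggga
Ifit1 holds response element matches at -104 to -95 and at -85 to -76 from the start site, both on the opposite strand. Oas1a holds 2 overlapping matches at -20 to -11 and -14 to -5, and a gamma-activated site match at -98 to -90. Igtp has its response element match at -34 to -25 and Irgm2 at -64 to -55, each with a gamma-activated site match upstream, at -45 to -37 and -75 to -67. These neighbouring genes share 62 of 64 bases around the match. Gbp3, which was lower, holds 2 overlapping matches at -45 to -36 and -39 to -30 in the window shown, while the window of its second start site, not shown, holds none. Of the called members not shown, Ifi211 and Ifna6 hold 1 response element match each and Ifi202b 1 gamma-activated site match. The Irf7 window holds neither pattern.

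Matches were common among the members whether or not they passed the test. Of 43 tested members with a promoter in the table, 21 (48.8%) held the response element pattern in at least 1 window, against 3.5% of 5810 tested genes with a promoter. Among members that were higher 4 of 8 held it, among lower members 3 of 3 (Gbp3, Ifi211 and Ifna6), and among those not past the test 14 of 32. The gamma-activated site pattern was in 12 of 43 members (27.9%), against 7.5% of tested genes. It was in 4 of 8 higher members, 0 of 3 lower members and 8 of 32 others. Isg15, with 3 response element matches, had one of the means below 0, at -0.09 ± 0.14. A match is a string of letters and was not tested as a binding site.

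The ligands gave few values. Interferon beta (Ifnb1) was listed at 0 on every array, and so were Ifna7 and Ifna11. Interferon gamma (Ifng) has 2 rows, of which one was at 0 throughout and the other had a value in mouse 11 alone, -0.05. Of 11 type I interferon genes, 5 were tested, with 0 higher and 1 lower. That gene was Ifna6, at -0.40 in mouse 11, -0.50 in mouse 12 and -0.60 in mouse 13. All 3 mice were below 0, with a mean of -0.50 ± 0.10 (adjusted p = 0.00657). A second row of Ifna6 read 0.23 in mouse 11 and -0.37 in mouse 12 and was listed at 0 in mouse 13. With that row averaged in, the mean was -0.37 and the call ended (adjusted p = 0.0578). With zeros kept as measured values it was -0.27 (adjusted p = 0.113). Ifna2 (0.05 ± 0.15), Ifna4 (-0.06 ± 0.10), Ifna9 (-0.14 ± 0.17) and Ifnab (-0.17 ± 0.16) did not pass. Ifna5 read -0.24 in mouse 11 and -0.36 in mouse 13, Ifna1 read 0.15 in mouse 13 alone, and Ifna15 read -0.31 in mouse 12 alone. Interferon alpha genes are close copies of each other, so probes may cross-hybridise between them.

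None of the 4 receptor genes passed the test. Ifngr2, a subunit of the interferon gamma receptor, had the highest mean, at 0.19 ± 0.09 and above 0 in all mice (adjusted p = 0.109). Its partner Ifngr1, which binds the ligand, was at -0.09 ± 0.08, with 2 rows at -0.07 and -0.11. The type I receptor genes Ifnar1 and Ifnar2 had means of 0.11 ± 0.15 and 0.14 ± 0.10, and both were highest in mouse 13, at 0.27 and 0.26. A second row of Ifnar2 read 0.44 in mouse 12 and 0.40 in mouse 13 and was listed at 0 in mouse 11.

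None of the 4 Janus kinase genes passed, nor did Stat2. Jak1, used by both receptor types, was at 0.11 in mouse 11, -0.14 in mouse 12 and 0.29 in mouse 13, so its sign differed between mice. Jak2, which serves the interferon gamma receptor, was below 0 in each mouse, with a mean of -0.14 ± 0.15 (adjusted p = 0.264). Jak3, a kinase of lymphocyte cytokine receptors, had a mean of 0.12 ± 0.21 that came mostly from mouse 12 (0.37). Stat2, the partner of Irf9, was at 0.05 and 0.12 in mice 11 and 12 and at -0.32 in mouse 13. Tyk2, the kinase bound to Ifnar1, had a gene mean of 0.10 ± 0.07 that hides 2 opposed rows, described below.

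Irf7 was the only interferon regulatory factor called higher. It rests on 1 row, so no other row of the gene could be compared with it. Irf7 drives the bulk of type I interferon production and is itself induced by interferon. It was at 0.98 in mouse 11, 1.10 in mouse 12 and 0.59 in mouse 13. All 3 mice were above every other member's mean, and the mean of 0.89 ± 0.27 (adjusted p = 0.00306) was higher than that of 99.4% of all genes tested. If the base is 2 this is 1.85-fold, and if it is 10 it is 7.78-fold, higher in the likely direction and lower by the same factor if the ratios run the other way. The next member in order, Ifit1, had 1 mouse above the lowest Irf7 value, so the ranges of the 2 genes overlap.

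The other regulatory factors did not pass. Irf8, a factor of macrophages and dendritic cells, was at 0.48 in mouse 11, 0.26 in mouse 12 and 0.02 in mouse 13 (mean 0.25 ± 0.23, adjusted p = 0.108). Without mouse 13 its mean passed (adjusted p = 0.0444). Irf1, an early target of interferon gamma, was above 0 in all mice at 0.16 ± 0.10 (adjusted p = 0.159), and its row lies in a crowded stretch. A stretch is called crowded where at least 3 other rows with a mean below -1 fall within 100 row numbers of a row. Such stretches hold 7.1% of tested rows and 5 of the 60 tested rows of the members, those of Oas1a, Irf1, Mx1, Jak2 (1 of 2 rows) and Ifitm7. Irf9, the DNA-binding part of the type I factor, was near 0 in mice 11 and 12 (0.02 and -0.01) and at 0.27 in mouse 13. Irf3, the factor that sensors activate directly, was at 0.0007 ± 0.13, with a 95% interval of the mean from -0.18 to 0.18. Irf2, an antagonist of Irf1, was at -0.07 ± 0.14. Irf4 and Irf5 were listed at 0 on every array.

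Among sensors and enzymes that act on foreign or double-stranded RNA and DNA, Adar was higher and the other 3 did not pass. Adar, which edits adenosine in double-stranded RNA, was at 0.20 in mouse 11, 0.51 in mouse 12 and 0.41 in mouse 13 (mean 0.37 ± 0.16, adjusted p = 0.0238). Without mouse 12 or 13 it did not pass (adjusted p = 0.0718 and 0.0612). Ifih1, the RNA sensor MDA5, spread from 0.51 in mouse 12 to -0.06 in mouse 13 and did not pass (mean 0.22 ± 0.29, adjusted p = 0.193). Zbp1, a sensor of Z-form nucleic acid, was above 0 in all mice at 0.22 ± 0.14 (adjusted p = 0.101). Eif2ak2, the RNA-dependent kinase PKR, was at 0.01 ± 0.07, with a 95% interval from -0.15 to 0.18.

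The classical antiviral effectors did not move together. Of 10 tested genes of the Ifit, Oas, ISG15 and Mx groups and Rsad2, 3 were higher (Ifit1, Oas1a and Usp18), 0 were lower and 7 did not pass. Over all genes tested, 9.48% were higher and 9.97% lower. Ifit1, which binds foreign RNA lacking the host cap, was at 0.42 in mouse 11, 0.39 in mouse 12 and 0.64 in mouse 13. The mean was 0.48 ± 0.14 (adjusted p = 0.00875). Its relatives Ifit2 (-0.14 ± 0.09, adjusted p = 0.202) and Ifit3 (-0.02 ± 0.12, adjusted p = 0.894) had means below 0. Their 95% intervals, -0.32 to 0.03 and -0.20 to 0.16, lie below the interval of Ifit1, 0.30 to 0.67, though the differences themselves were not tested. Each of these genes rests on 1 tested row. The intervals rest on the spread between the anti-GBM mice, and hold neither that between rows of a gene nor that between control mice. The second rows of Ifit1 and Ifit2 were listed at 0 on every array, and that of Ifit3 read 0.22 in mouse 13 alone.

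Oas1a, an enzyme that makes the 2-5A messenger in response to double-stranded RNA, was at 0.36, 0.37 and 0.28 in mice 11, 12 and 13. Its 3 values lie close together (mean 0.34 ± 0.05, adjusted p = 0.0186), but the call ended without mouse 11 (adjusted p = 0.0993), and its row lies in a crowded stretch. Oasl2, an Oas relative, averaged -0.001 ± 0.07 over 2 opposed rows. Usp18, which removes ISG15 from proteins and dampens the type I receptor, was at 0.32, 0.28 and 0.40 (mean 0.33 ± 0.06, adjusted p = 0.0206). It did not pass without mouse 11 or 13 (adjusted p = 0.0856 and 0.0558). Isg15, the ubiquitin-like modifier itself, was at 0.06 in mouse 11, -0.21 in mouse 12 and -0.13 in mouse 13 (adjusted p = 0.431). Mx1, an antiviral GTPase, was at 0.09, 0.10 and 0.11, the smallest spread of any tested member (mean 0.10 ± 0.01, adjusted p = 0.329). Its row lies in a crowded stretch, and a second row read 0.04 in mouse 11 and 0.28 in mouse 13. Mx2 (-0.08 ± 0.06) and Rsad2, the antiviral enzyme viperin (-0.02 ± 0.15), did not pass. The exonuclease gene Isg20 and Oas1g were listed at 0 on every array.

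GTPases that interferon gamma induces were mixed too. Among immunity-related GTPases, which act in defence against intracellular parasites, 2 of 5 were higher and 3 did not pass, beside 9.48% of all genes higher. Igtp was at 0.21 in mouse 11, 0.58 in mouse 12 and 0.30 in mouse 13 (mean 0.36 ± 0.20, adjusted p = 0.0313). Without mouse 12 or 13 it did not pass (adjusted p = 0.102 and 0.0547). Its neighbour Irgm2 was at 0.38, 0.18 and 0.27 (mean 0.27 ± 0.10, adjusted p = 0.0419), a call that none of the 3 leave-one-out fits kept (adjusted p up to 0.281, without mouse 11). With rows on at least 2 arrays taken in, Irgm2 did not pass either (adjusted p = 0.0556). Irgm1 was above 0 in all mice without passing (0.21 ± 0.14, adjusted p = 0.103), while Iigp1 (-0.10 ± 0.18) and Ifi47 (-0.18 ± 0.20) had means below 0 and 1 mouse above 0 each.

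Guanylate-binding proteins, which coat intracellular microbes, had 1 lower member, 0 higher and 4 that did not pass. Gbp3 was at -0.26 in mouse 11, -0.55 in mouse 12 and -0.33 in mouse 13 (mean -0.38 ± 0.15, adjusted p = 0.0209). Both of its rows were below 0 in every mouse, at -0.46 and -0.30, and the call ended without mouse 12 (adjusted p = 0.0648). Its next neighbours in the genome, Gbp2b and Gbp2, had means above 0. Gbp2 was at 0.35 and 0.34 in mice 11 and 12 but at 0.03 in mouse 13 (adjusted p = 0.0952, and 0.0376 without mouse 13). Gbp8 spread further, at 0.57 in mouse 11, 0.25 in mouse 12 and -0.11 in mouse 13 (adjusted p = 0.205, and 0.0429 without mouse 13). Gbp4 (0.16 ± 0.13) and Gbp2b (0.13 ± 0.08) were above 0 in all mice without passing.

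The p200 family, nuclear DNA-binding proteins encoded side by side, held a member past the test in each direction. Ifi202b was at 0.58 in mouse 11, 0.48 in mouse 12 and 0.14 in mouse 13 (mean 0.40 ± 0.23, adjusted p = 0.0288). Its 2 rows were at 0.36 and 0.44, and the call ended without mouse 11 or 12 (adjusted p = 0.127 and 0.07) or with 1 row kept per gene (adjusted p = 0.0629). Ifi211 was at -0.37, -0.34 and -0.80 in mice 11, 12 and 13 (mean -0.50 ± 0.26, adjusted p = 0.0181). Ifi203, which lies between them, was at -0.20 ± 0.16 (adjusted p = 0.136), and Ifi204 had 2 mice above 0 and mouse 13 at -0.21. These genes are close copies, so their probes may share transcripts. Among IFITM proteins, which block viral entry at membranes, Ifitm3 was at 0.41, 0.32 and 0.24 (mean 0.32 ± 0.08, adjusted p = 0.0243). Its call ended without mouse 11 or 12 (adjusted p = 0.159 and 0.0534). Ifitm2 was above 0 in all mice (0.19 ± 0.10, adjusted p = 0.111), and Ifitm7 was below 0 in all mice (-0.23 ± 0.04, adjusted p = 0.0566), with a row in a crowded stretch. Ifitm5 read -0.17 in mouse 11 and 0.44 in mouse 12. Of the remaining members, Ifi27 had a value in mouse 12 alone (0.67), and Ifi30 and Ifi44l were listed at 0 on every array.

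**Figure D2:**
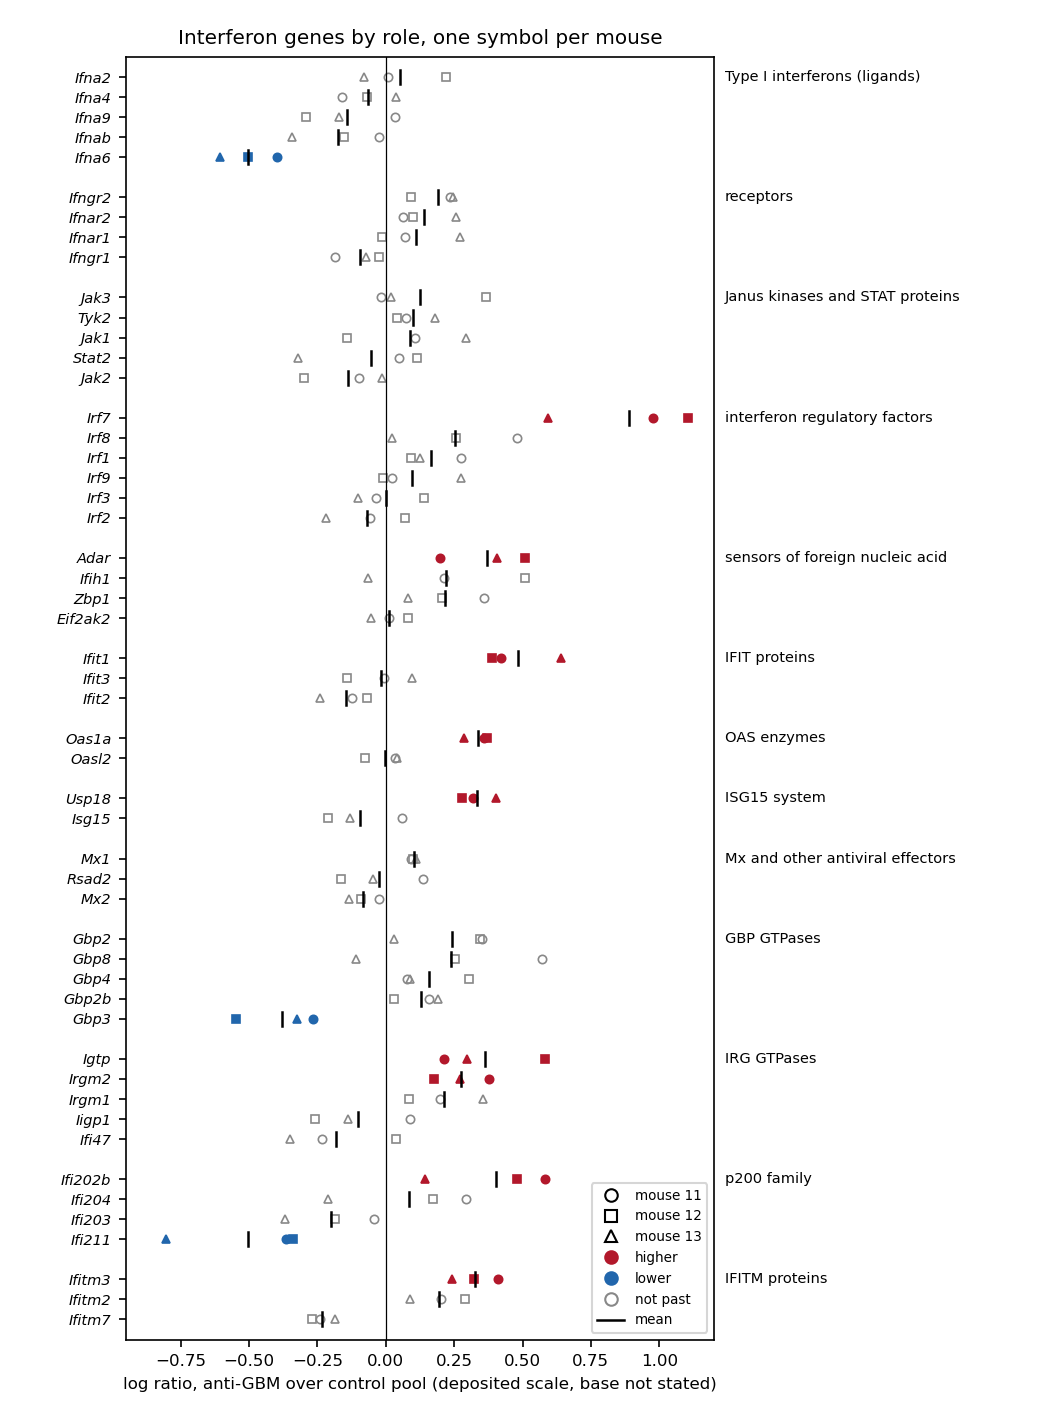
Log ratio (x axis, base not stated) of the 51 tested interferon genes, grouped by role, with 1 symbol per mouse and a bar at the mean; filled red is higher, filled blue lower and open grey not past the test. Irf7 stands to the right of all other members, and called and uncalled genes, or higher and lower genes, occur within the same families, as with Ifi202b at 0.40 and Ifi211 at -0.50.

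Genes measured by more than 1 row gave a check within the arrays. Of 9 members with 2 tested rows, 4 had row means of opposite sign (Oasl2, Tyk2, Isg15 and Eif2ak2). Over the whole table this held for 43.2% of 1103 genes with several tested rows. Both Oasl2 rows carry the same accession, AF068835. One read 0.27, 0.18 and 0.27 in mice 11, 12 and 13, and the other -0.21, -0.33 and -0.19. The rows therefore disagreed in the same way in each mouse, by 0.49 on average, while each row's SD was 0.05 and 0.08. Neither passed when rows were fitted singly (adjusted p = 0.058 and 0.0607). In the fit over rows, 14 of the members' 60 rows passed, beside 19.6% of all rows. One Tyk2 row was higher at 0.37 ± 0.08 (adjusted p = 0.0171), and the other was at -0.17 ± 0.07 (adjusted p = 0.143). The 2 Isg15 rows were at 0.02 ± 0.16 and -0.21 ± 0.17. Over the table, 366 genes had several rows that each kept 1 sign in all mice, and in 115 of them (31.4%) those rows pointed in opposite directions. For rows that share an accession this was 26 of 78 (33.3%). What sets the rows of a gene apart was not tested. The rows of Gbp3, Ifi202b, Jak2, Ifnar1 and Ifngr1 had means of the same sign.

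**Figure D3:**
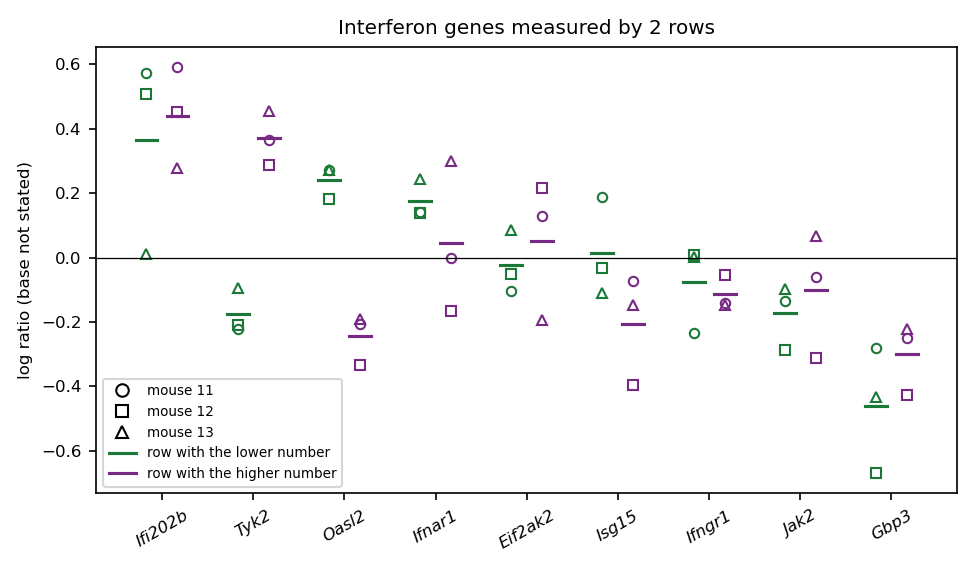
Log ratio (y axis, base not stated) of the 9 interferon genes with 2 tested rows; green and purple mark the row with the lower and the higher row number, symbols the mice and bars the row means. Oasl2 and Tyk2 have rows on opposite sides of 0 in all 3 mice, and both Gbp3 rows lie below 0.

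Mouse 13 differed from the other mice for some members. The median of the 51 members was 0.072 in mouse 11, 0.084 in mouse 12 and 0.029 in mouse 13. In mouse 13, 9 members lay more than 0.2 below both other mice, which is 17.6%, beside 11.5% of all genes tested. They were Irf7, Irf8, Gbp2, Gbp8, Ifih1, Stat2, Ifi202b, Ifi204 and Ifi211. Ifit1, Ifnar1 and Irf9 lay more than 0.2 above both other mice in mouse 13 (5.9%, beside 8.8% of all genes). Without mouse 13, 8 of the 12 calls remained, and Gbp2, Gbp8 and Irf8 were added, while Adar, Igtp, Irgm2 and Usp18 were lost. The mouse was singled out after its values were seen, and the difference was not tested.

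**Figure D4:**
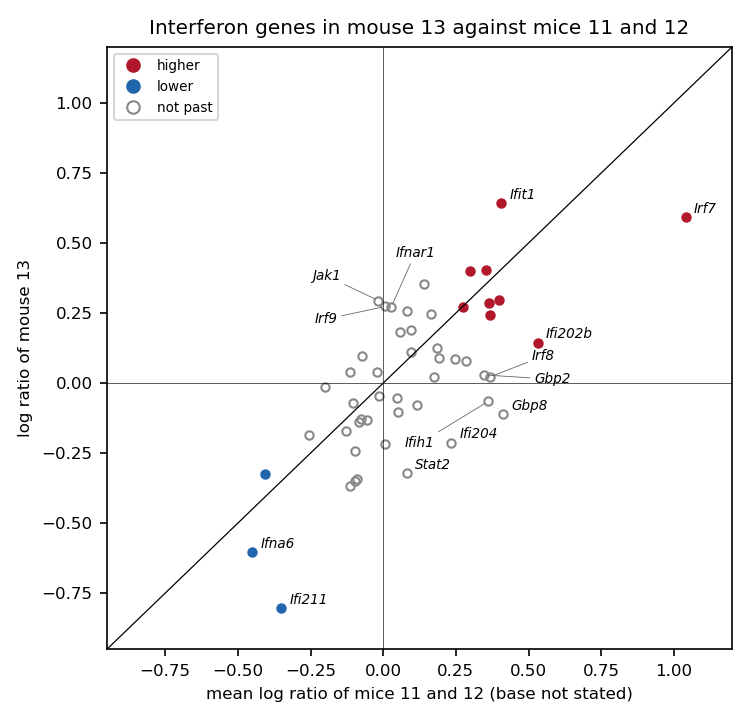
Log ratio of mouse 13 (y axis) against the mean of mice 11 and 12 (x axis, base not stated) for the 51 interferon genes, coloured by the call over 3 mice, with the line of equal values. Gbp8, Ifih1, Irf8 and Gbp2 lie well below the line with mouse 13 between -0.11 and 0.03, and Ifit1 lies above it.

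Other genes of the pathway, from lists that do not hold the members above, gave 13 higher, 6 lower and 46 not past the test among 65 measured. This is 29.2% called, beside the 19.4% of all genes. Antigen presentation and the immunoproteasome stood at the higher end, with 8 of 15 higher, 0 lower and a median of 0.28. H2-D1, a class I heavy chain gene, was at 0.88, 0.71 and 0.81 in mice 11, 12 and 13 (mean 0.80 ± 0.09, adjusted p = 0.00107). H2-Q7, another class I gene, was at 0.71 ± 0.07 (adjusted p = 0.00165). Psmb8, an immunoproteasome subunit, was at 0.60 ± 0.21 (adjusted p = 0.00701) and Tap2, a peptide transporter subunit, at 0.52 ± 0.11 (adjusted p = 0.00609). These 4 kept their calls whichever mouse was left out. H2-M3, H2-K1, H2-Ab1 and Ctss were called as well, and of these only Ctss kept its call in all 3 such fits. Without mouse 12 the list had 5 higher. The rows of H2-K1 were at 0.14 and 0.71. B2m and Psmb9 were listed at 0 on every array. Probes of class I genes may cross-hybridise, since these genes are close copies.

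Feedback inhibitors had 1 of 10 higher and 2 lower, beside 9.48% higher and 9.97% lower over all genes. Socs1 and Socs3, which interferons and other cytokines induce and which then block Janus kinases, were at -0.37 ± 0.20 (adjusted p = 0.0291) and -0.50 ± 0.29 (adjusted p = 0.0223). Socs1 did not pass without mouse 12 (adjusted p = 0.0903), and its rows were at -0.56 and -0.19. With 1 row kept per gene its mean was -0.19 (adjusted p = 0.207). The receptor kinase gene Axl, which restrains inflammatory signalling, was higher at 0.73 ± 0.09 (adjusted p = 0.00165). Among other STAT and cytokine signal genes, 1 of 5 was higher and 2 were lower. Stat3, the main factor downstream of interleukin 6, was higher in all mice, at 0.41, 0.65 and 0.64 (mean 0.57 ± 0.14, adjusted p = 0.00536). Stat5a (-0.52 ± 0.28) and Stat5b (-0.35 ± 0.08) were lower, and both lost their calls without mouse 11 (adjusted p = 0.0655 and 0.114). Stat5b did not pass without mouse 13 either (adjusted p = 0.0505) or with local medians subtracted (adjusted p = 0.0571), and its row lies in a crowded stretch.

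Other interferon-induced genes had 2 of 24 higher, 1 lower and a median of 0.01. These shares, 8.3% higher and 4.17% lower, stand beside 9.48% and 9.97% of all genes. Lgals3bp, a secreted glycoprotein, was at 0.67 ± 0.28 (adjusted p = 0.00814), and with zeros kept as measured values at 0.35 (adjusted p = 0.0537). Ms4a4c was at 0.33 ± 0.15 (adjusted p = 0.0328) and Trim30a, a TRIM protein, at -0.29 ± 0.04 (adjusted p = 0.028). Ms4a4c did not pass without mouse 11 or 12, nor Trim30a in any leave-one-out fit (adjusted p up to 0.136 and 0.119). The 6 measured genes of nucleic acid sensing had a median of 0.105, close to that of the interferon genes, with 1 higher and 0 lower. Trim25, a ligase that activates the RNA sensor RIG-I, was at 0.33 ± 0.15 (adjusted p = 0.0331), which did not hold without mouse 11 or 13 (adjusted p up to 0.104). None of the 5 measured genes of interferon-induced chemokines and their receptor Cxcr3 was higher. Ccl2, a monocyte attractant, was lower at -0.37 ± 0.09 (adjusted p = 0.0164, and 0.0833 without mouse 11). Cxcl9 (-0.21 ± 0.13) and Cxcl11 (-0.19 ± 0.10), which attract activated T cells, did not pass, and neither did Cxcl10 (0.18 ± 0.14, adjusted p = 0.149).

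**Figure D5:**
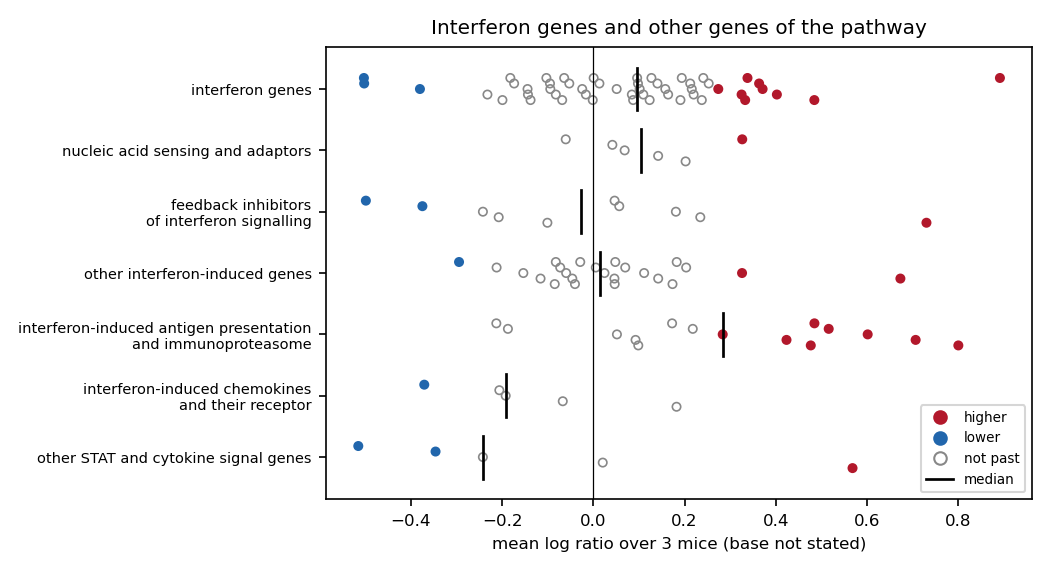
Mean log ratio over 3 mice (x axis, base not stated) of the interferon genes and of 6 lists of other pathway genes, with 1 point per gene, filled where the gene passed the test, and a bar at each median. The antigen presentation list has its median at 0.28 and no lower call, whereas the interferon genes span -0.50 to 0.89 around a median of 0.096.

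Markers of cells that make or answer interferon moved unevenly. Of 20 markers of T and NK cells, 7 had a value on all arrays, with 2 higher, 0 lower and medians of -0.04, 0.08 and 0.14 in mice 11, 12 and 13. The granzyme gene Gzma was at 0.65 ± 0.27 and Cd4 at 0.34 ± 0.15. Cd4 did not pass without mouse 11 (adjusted p = 0.101) or mouse 13 (0.0862). Ncr1 and Gzmb were listed at 0 on every array, and Cd3e, Cd3d and Cd3g on at least 1. Of 14 monocyte and macrophage markers, 8 were measured, with 5 higher and 1 lower, beside 9.48% higher and 9.97% lower over all genes, and medians of 0.42, 0.18 and 0.20 in mice 11, 12 and 13. Without mouse 11 the higher count was 2, of Fcgr1 and Ctss, and without mouse 13 it was 3. Fcgr1, an Fc receptor gene, was at 0.65 ± 0.28 and Ctss, which the antigen presentation list also holds, at 0.48 ± 0.13. Lyz2, a lysozyme gene, was at 0.47 ± 0.31, and the growth factor receptor gene Csf1r was at -0.72 ± 0.33. Of 8 plasmacytoid dendritic cell markers 5 were measured, with Ly6d alone higher (0.26 ± 0.05), a call that no leave-one-out fit kept (adjusted p up to 0.216). Neutrophil markers had 3 of 10 higher and 2 lower, and 2 higher and 1 lower without mouse 11 or 12. The calgranulin genes S100a9 and S100a8 were at 1.42 ± 0.38 and 0.56 ± 0.06. The S100a8 mean averages 2 rows that differ widely, at 0.013 and 1.115. Ltf and Ngp, which encode granule proteins, were at -0.39 ± 0.05 and -0.31 ± 0.17. B and plasma cell markers had 0 of 4 higher and 2 lower, Jchain (-0.67 ± 0.20) and Ighm (-0.50 ± 0.07). Ighm averages 3 rows, whose means ran from -1.32 to -0.06. Kidney markers had 0 of 8 higher and 2 lower, the tubule gene Calb1 (-0.48 ± 0.09) and the podocyte gene Nphs1 (-0.36 ± 0.21). Nphs1 did not pass without mouse 11 or 12. The 2 Calb1 rows were at -0.77 and -0.18, and at least 1 of them lies in a crowded stretch. The part of these cells in the interferon genes' values was not tested.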

How the data were processed

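Kidney RNA of 3 anti-GBM mice was measured on 2-colour arrays against 1 pool. The authors' deposited table gives 1 log ratio per row and array, while scanner, background correction, normalization, base and direction are not stated in the labels or the table's header. Exact zeros (29.5% to 33.7% of an array's values) were read as no estimate. Rows with a value on all 3 arrays (9682) were kept, the median of an array's values other than 0 was subtracted from them, and rows naming 1 gene in the platform annotation were averaged per gene and array. Of 13738 such rows, 13694 were found by gene number in RefSeq (GRCm38.p6). The mean log ratio of 7235 genes was tested against 0 with limma 3.58.1 in R 4.3.3 (lmFit with an intercept, eBayes with 5.55 prior degrees of freedom) and Benjamini-Hochberg adjustment. With 3 arrays, precision is limited. The fit was tested on simulated data. Members and lists were chosen with earlier results of these data known. Members past the threshold, or with a mean beyond 0.3 in size, were named with each mouse's value, and other members by role. Of each other list the called genes were named, at least the 4 with the smallest p, and Cxcl10. Promoters came from RefSeq. Python 3.11.15, pandas 2.3.3, numpy 2.4.6 and matplotlib 3.10.9 were used.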

Additional observations from a re-analysis of the deposited data

How the results depend on the processing

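The interferon genes past the test numbered 12 of 51 and stayed between 10 and 12 with no centring, another centring, rows on at least 2 arrays, 1 row per gene, quantile normalization, a trended and robust prior, local medians subtracted, or (chosen after seeing the data, like the next 2) without crowded stretches. They numbered 12 of 54 with the proteasome activators and 7 of 34 among genes listed by name only. With zeros kept as a log ratio of 0 there were 5, beside 660 instead of 1407 of all genes and 9 instead of 19 other pathway genes. With 1 mouse left out the counts ran from 6 to 11 for interferon genes, 726 to 1032 for all genes and 12 to 16 for other pathway genes, fewer arrays having less power. None of the 32 genes recomputed one by one changed sign in any of these fits. All 32 had the same sign in every mouse, so leaving out 1 mouse could not change it. Rows on at least 2 arrays also ended the calls of H2-K1 (adjusted p = 0.055) and H2-Ab1 (0.0589). No paired analysis was possible because there is 1 group. Signal brightness was not used here, so the depth behind a ratio is unknown.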
